A study of Mus musculus with 12 samples.

Results

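Foxp3, Ikzf2 (the gene of Helios) and Ikzf4 (the gene of Eos) encode transcription factors of Treg, regulatory T cells, which are CD4 cells that hold immune responses in check. Their rows were taken by name from a table of estimated read counts per gene, of which they are 3 of 13404 rows, and 3 of 3 were among the 9495 genes tested. RNA sequencing covered 12 libraries of C57BL/6 mouse spleen cells in 6 groups of 2. Treg had been sorted as CD4+CD25+ cells and conventional CD4 T cells (Tconv) as CD4+ cells, with no CD25 gate stated for the latter. Each cell type came from wild-type mice of 2 months (young), wild-type mice of over 18 months (aged) and mice of 2 months labelled Dcaf1-deficient. The allele, the cells that lack Dcaf1, the sex of the mice and any pooling of animals are not given in the sources used here. No label says that the 2 libraries of a group came from separate mice, so p-values measure the spread between these libraries. By the female transcript Xist, given below, aged Treg, aged Tconv and Treg labelled Dcaf1-deficient each hold 2 libraries of unlike sex. Those libraries are not repeats of the same sample. In the other groups the spread may be technical.

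Foxp3 is the forkhead factor without which Treg do not work, and its loss causes severe autoimmunity. It binds DNA together with partners such as NFAT and Runx factors, and it raises genes of Treg function while lowering genes of helper T cells, such as those of effector cytokines. Helios and Eos are zinc finger proteins of the Ikaros family: Eos acts with Foxp3 in gene silencing, and Helios is high in Treg made in the thymus and helps keep them stable. Interleukin 2 sustains Foxp3 through STAT5, and CD25, the protein used in the sort, is the alpha chain of its receptor, encoded by Il2ra. Cd3e and Cd3g encode chains of the T cell receptor complex that Treg and Tconv both carry. The geometric mean of their 2 counts is called CD3 here, and a factor's count divided by it gives a level relative to T cell transcripts.

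On GRCm38 (mm10), GENCODE M21 places Foxp3 on the plus strand of chromosome X from 7573644 to 7595245. Ikzf2 lies on the minus strand of chromosome 1 from 69531214 to 69687245, and Ikzf4 on the minus strand of chromosome 10 from 128630843 to 128645991. All 3 are protein-coding genes, and the deposited counts are per gene, so isoforms were not separated. Of the 3 genes, 1 matched the RefSeq promoter table (GRCm38.p6): Foxp3, with 2 start sites. The stretch around the TATA box of its first listed start is shown because Foxp3 is the gene whose level the results turn on, with the box in capitals. It covers chrX:7579634-7579663 on the plus strand and ends 12 bases before the start site, within exons of longer GENCODE transcripts.
Foxp3 TATA region: ttcttctcggTATAAAagcaaagttgtttt
The 250 bases before each of the 2 starts were searched on both strands for 7 motifs. They were the TATA box TATAAA, the forkhead motif TGTTTAC and the core of NFAT sites, GGAAA. AP-1 sites were searched as TGANTCA and STAT sites as TTCNNNGAA. The letters for Runx factors were TGTGGT, and the letters for Ikaros proteins were TGGGAA. Of these, the TATA letters were found before the first start and lie 32 bases ahead of it, and 12.4% of 32851 promoters of that length hold these letters. The NFAT core stood on the minus strand before both starts, as in 55.6% of promoters. Before the second start it overlapped a TTCNNNGAA match, which 7.02% of promoters hold. The other 4 motifs had no match in either window, which says only that these letters are not there.

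Total estimated counts ranged from 18358477 to 26852448 per library, and the lowest count of any of the 3 factors was 291, for Ikzf4 in young Tconv 1. Dcaf1 itself (named Vprbp) was at 101 and 102 CPM (read counts scaled to library size, by TMM) in the labelled Treg against 128 and 144 in young Treg, and at 132 in both labelled Tconv against 147 and 144 in young Tconv. Wild-type aged libraries were as low, with 105 in aged Treg 1 and 90.5 in aged Tconv 2, so the deficiency is not clear from the gene's level and those libraries are called "labelled" throughout. The Treg libraries differed widely in transcripts of other spleen cells. The sum of 13 of 15 listed macrophage genes was low for young Treg 1 (250 CPM) and aged Treg 2 (1360 CPM). It was 5121 CPM for young Treg 2, 13005 for aged Treg 1, and 15224 and 18657 for labelled Treg. In Tconv it ran from 30.6 to 1360 CPM. Sums of 11 of 12 B cell genes ran from 162 to 3779 CPM in Treg and from 194 to 598 in Tconv, and sums of 8 of 12 erythroid genes from 27.6 to 12163 and from 13.7 to 1520. No gene of these 3 lists was at 0 in both libraries of a group. Sums of 11 of 15 pan-T genes ran from 3081 to 7566 CPM in Treg and from 7529 to 9115 in Tconv. Young Treg 2 and aged Treg 1 thus stood apart from their partners. In such bulk samples, fewer cells of a type and less RNA per cell cannot be told apart.

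Foxp3 was high in all 6 Treg libraries and low in young and labelled Tconv. Its level in replicates 1 and 2 was 1428 and 812 CPM for young Treg, 746 and 1986 for aged Treg, and 625 and 535 for labelled Treg. In Tconv it was 47.7 and 78.4 CPM (young), 334 and 675 (aged) and 80.8 and 75.6 (labelled). The libraries of labelled Treg were therefore the lowest of Treg, and the libraries of aged Tconv were the highest of Tconv, with aged Tconv 2 above both labelled Treg. Ordered by group mean, aged Treg (1366 ± 877, SD, n = 2) came first, then young Treg (1119.6 ± 436), labelled Treg (579.8 ± 63.7), aged Tconv (505 ± 241), labelled Tconv (78.2 ± 3.64) and young Tconv (63.0 ± 21.7). Neighbours in that order overlapped, except that labelled Treg lay below young Treg and labelled Tconv below aged Tconv.

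Ikzf2 followed a like order but stood higher in aged Tconv. It was at 1267 and 671 CPM for young Treg, 655 and 1942 for aged Treg, and 461 and 435 for labelled Treg. In Tconv it was at 89.1 and 111 CPM (young), 673 and 773 (aged) and 127 and 119 (labelled). Both aged Tconv libraries exceeded young Treg 2, aged Treg 1 and both labelled Treg. The group means were 1298 ± 910 CPM in aged Treg, 969 ± 422 in young Treg and 723 ± 70.4 in aged Tconv, 3 groups whose ranges overlapped in turn. Labelled Treg (448 ± 18.4), labelled Tconv (123 ± 5.42) and young Tconv (100.1 ± 15.5) followed, each apart from the one before.

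Ikzf4 was the only one of the 3 whose Treg and Tconv libraries did not overlap. In Treg it was at 182 and 110.0 CPM (young), 94.3 and 264 (aged) and 80.4 and 75.1 (labelled). In Tconv it was at 13.7 and 17.5 CPM (young), 48.4 and 25.2 (aged) and 20.6 and 16.7 (labelled). The lowest Treg library thus exceeded the highest Tconv library, aged Tconv 1, and 1.89% of the tested genes lay higher in Treg without overlap. Aged Tconv 2, the Tconv library with the most Foxp3 and Ikzf2, had 25.2 CPM of Ikzf4, nearer to young and labelled Tconv than to any Treg library. The order of group means was aged Treg (179 ± 120), young Treg (146 ± 51.3), labelled Treg (77.7 ± 3.74), aged Tconv (36.8 ± 16.4), labelled Tconv (18.7 ± 2.76) and young Tconv (15.6 ± 2.75). The first pair and the last pair overlapped, and the other neighbours did not.

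**Figure D1:**
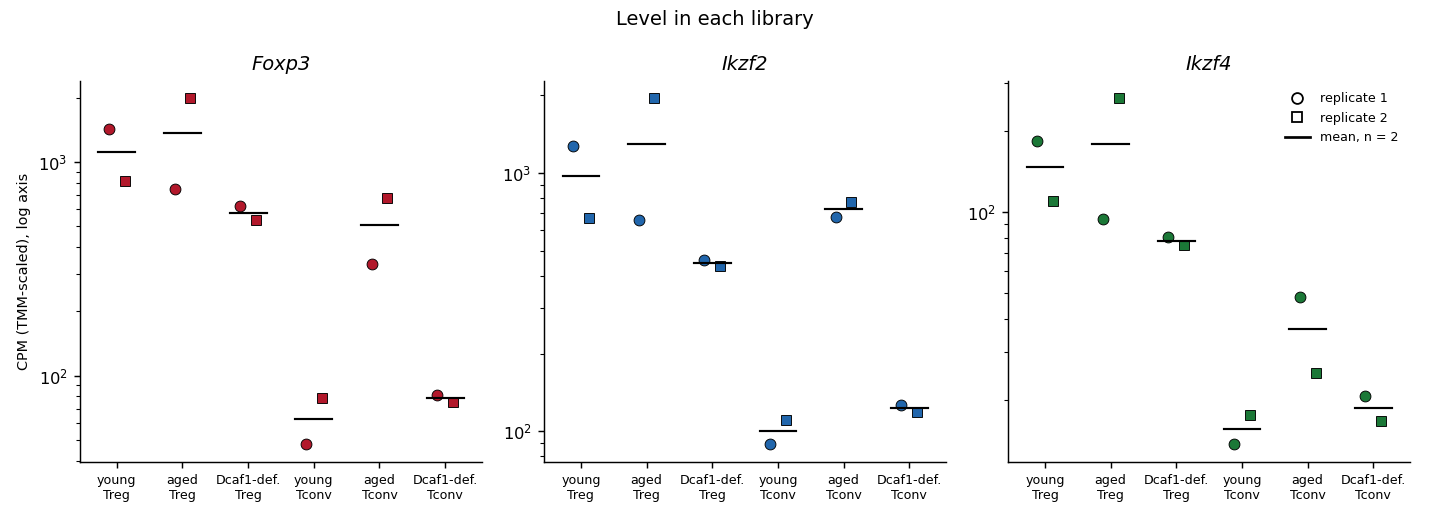
Levels of Foxp3, Ikzf2 and Ikzf4 in CPM (counts scaled to library size by TMM; log axis) in the 6 groups; points are libraries (circle, replicate 1; square, replicate 2) and bars are means of 2. Young and labelled Tconv sit lowest for Foxp3 and Ikzf2, while aged Tconv reach 334 and 675 CPM of Foxp3 and 673 and 773 CPM of Ikzf2.

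Treg were compared with Tconv over the 3 conditions to ask how far the factors mark the sorted Treg. All 3 were higher in Treg, in a fit of edgeR's quasi-likelihood test to all 12 libraries with Benjamini-Hochberg adjustment over 9495 genes. Foxp3 was higher by 2.83 on the log2 scale (SE 0.32, edgeR adjusted p = 0.00274), Ikzf2 by 1.99 (SE 0.28, adjusted p = 0.00487) and Ikzf4 by 2.52 (SE 0.30, adjusted p = 0.00304). That is 3 of 3 factors called higher, where 11.5% of the tested genes were called higher 22.5% in either direction and 11% lower. Each call was also made in 12 of 12 fits that left out 1 library. Without young Treg 2 and aged Treg 1 the differences were 3.14, 2.34 and 2.83, again past the threshold, with 14.4% of genes called. In the same comparison 13 of 13 tested macrophage genes and 6 of 11 B cell genes were called higher in Treg and 7 of 11 pan-T genes lower, and their part in the result was not tested.

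Between the young groups all 3 factors passed. Foxp3 was higher in young Treg by 4.15 (SE 0.59, edgeR adjusted p = 0.0304), Ikzf2 by 3.28 (SE 0.51, adjusted p = 0.0362) and Ikzf4 by 3.23 (SE 0.53, adjusted p = 0.0438). These were 3 of 3 calls against 0.495% of the tested genes called higher, and the ranges of all 3 were apart, as for 24.4% of genes. With a term for the replicate number in the fit, Ikzf2 and Ikzf4 no longer passed. Each call was kept in 4 of 12 fits that left out a library, those without an aged library, with adjusted p of 0.00659 to 0.352 over all 12 and the 3 factors.

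Between the aged groups no factor passed, with 0.295% of genes called higher. Foxp3 was higher in aged Treg than in aged Tconv by 1.44 (SE 0.53, edgeR adjusted p = 0.213), Ikzf2 by 0.84 (SE 0.47, adjusted p = 0.364) and Ikzf4 by 2.28 (SE 0.51, adjusted p = 0.091). Foxp3 and Ikzf4 lay apart in these 4 libraries, where 15.7% of genes lay higher without overlap, and Ikzf2 overlapped. Without young Treg 2 and aged Treg 1, Ikzf2 (1.43, edgeR adjusted p = 0.0126) and Ikzf4 (2.85, adjusted p = 0.0199) passed and Foxp3 did not (1.98, adjusted p = 0.0728), with 2.51% of genes called. Without aged Treg 2 instead, the Ikzf2 difference turned to -0.14.

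In the labelled groups Foxp3 was called and the others were not, where 0.874% of genes were called higher. Foxp3 was higher in labelled Treg by 2.89 (SE 0.55, edgeR adjusted p = 0.0461), Ikzf2 by 1.86 (SE 0.48, adjusted p = 0.0788) and Ikzf4 by 2.06 (SE 0.51, adjusted p = 0.0733). All 3 lay apart without overlap, as did 39.5% of genes. The Foxp3 call was kept in 6 of 12 fits that left out a library and lost without any one of the 4 labelled libraries or either young Tconv library, with adjusted p of 0.0215 to 0.308. It was also lost when the title tag entered the fit (3.50, edgeR adjusted p = 0.0649), and with a term for the replicate number. Both labelled Treg carry L4 and both labelled Tconv L5, so within these 4 libraries tag and cell type cannot be told apart. Xist was at 1.37 CPM in labelled Treg 1, against 1658 in labelled Treg 2 and 1321 and 1339 in labelled Tconv. Foxp3 is X-linked, and the part of sex was not tested.

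**Figure D2:**
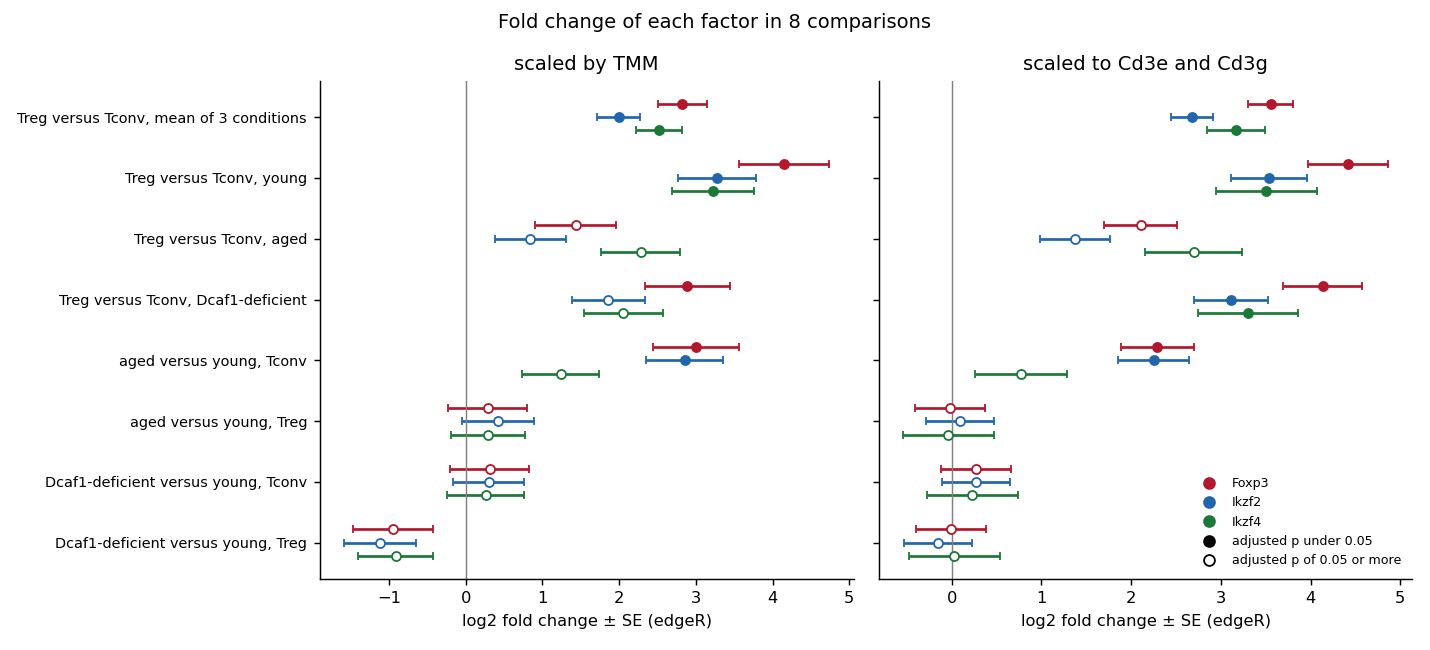
Log2 fold changes ± SE of the 3 factors in 8 comparisons from edgeR, with libraries scaled by TMM (left) and to Cd3e and Cd3g (right); filled points have an adjusted p under 0.05. With CD3 scaling the labelled Treg difference from young Treg moves from -0.95 to -0.00 for Foxp3, and that of Treg from Tconv widens.

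Relative to CD3, the 3 factors were nearly level across all Treg libraries. Foxp3 per CD3 was 2.55 and 2.10 for young Treg, 2.36 and 2.24 for aged Treg, and 2.39 and 2.25 for labelled Treg. The highest Treg library was thus 1.22 times the lowest, against 3.71 times in CPM. Ikzf2 per CD3 was 2.26 and 1.73 for young Treg, 2.07 and 2.19 for aged Treg, and 1.76 and 1.83 for labelled Treg, a range of 1.31 times against 4.47 times in CPM. Ikzf4 per CD3 was 0.326 and 0.284 for young Treg, 0.298 and 0.297 for aged Treg, and 0.307 and 0.315 for labelled Treg, a range of 1.15 times against 3.51 times. Per CD3 no Treg group stood out for Foxp3 or Ikzf4, and the 2 labelled libraries lay within the range of young Treg for all 3 factors.

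The coefficient of variation (CV, the SD as a percent of the mean) over the 6 Treg libraries fell from 55.5% in CPM to 6.73% per CD3 for Foxp3. For Ikzf2 it was 65.2% in CPM and 11.6% per CD3, and for Ikzf4 55.4% and 4.86%. In CPM the factors varied more than most genes: 77.5% of the 9495 tested genes had a CV at or below that of Foxp3, 82.5% at or below Ikzf2 and 77.4% at or below Ikzf4. Per CD3 they were among the steadiest, with 0.0843%, 0.379% and 0.0527% of genes at or below them. The median over genes was 44.6% per CD3 and 24.3% in CPM. CD3 itself had a CV of 56.0% in CPM, a spread that the division passes on to genes that do not follow it. Leaving out Cd3e and Cd3g, which make up the scale, Ikzf4 ranked 3, Foxp3 6 and Ikzf2 34 of 9493 genes. The genes ahead of Foxp3 were named after their values were seen: Zap70, the kinase of T cell receptor signalling (3.64%), the ubiquitin ligase gene Peli1 (4.84%), Galm (5.64%) and the lymphocyte GTPase gene Gimap4 (6.04%), besides Ikzf4. Il2ra varied more, with a CV of 27.4% per CD3, as did Cd4 (17.0%), the costimulatory receptor gene Cd28 (26.9%) and the Ikaros gene itself, Ikzf1 (47.0%). The pan-T gene Cd2, at rank 29 (10.9%), varied less than Ikzf2.

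**Figure D3:**
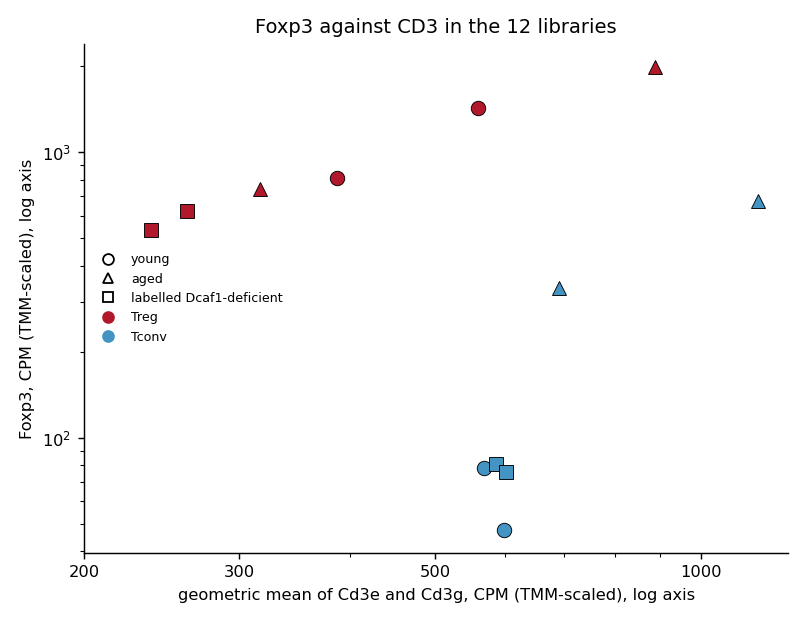
Foxp3 against CD3 (the geometric mean of Cd3e and Cd3g), both in CPM on log axes, in the 12 libraries; colour gives the cell type and shape the condition. The 6 Treg libraries lie along a line on which Foxp3 is 2.10 to 2.55 times CD3, 4 Tconv libraries lie together at the bottom, and both aged Tconv libraries lie between.

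CD3 itself was at 559 and 387 CPM for young Treg, 316 and 888 for aged Treg, and 262 and 238 for labelled Treg, so the Treg libraries ranked alike by CD3 and by Foxp3. Their order by the macrophage sum was close to the reverse, with labelled Treg at the top and young Treg 1 at the bottom. Whether the transcripts of other cells set the CPM of the factors was not tested. Across the 6 Treg libraries, Foxp3 in log2 CPM correlated with Cd3e at r = 0.993 and with Cd3g at r = 0.987. Foxp3 correlated with Ikzf2 at r = 0.996 and with Ikzf4 at r = 0.997, and Ikzf2 with Ikzf4 at r = 0.995. These 6 points share their library scaling and differ in their content of other-cell RNA, so the coefficients are descriptions. Over all 12 libraries Foxp3 correlated with Ikzf2 at 0.975, with Ikzf4 at 0.921 and with Cd3e at -0.04.

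Relative to CD3, Treg and Tconv were apart for every factor. In Tconv, Foxp3 per CD3 was 0.0797 and 0.138 (young), 0.484 and 0.581 (aged) and 0.138 and 0.126 (labelled). Ikzf2 per CD3 was 0.149 and 0.196 for young Tconv, 0.976 and 0.666 for aged Tconv, and 0.217 and 0.198 for labelled Tconv. Ikzf4 per CD3 was 0.0228 and 0.0309 for young Tconv, 0.0701 and 0.0217 for aged Tconv, and 0.0352 and 0.0278 for labelled Tconv. Aged Tconv thus lay between the other Tconv and Treg for Foxp3 and Ikzf2, while for Ikzf4 1 of its 2 libraries did and the other was the lowest of all 12.

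Averaged over the 3 conditions, Foxp3 per CD3 was higher in Treg by 3.57 on the log2 scale (SD 1.27 over conditions), Ikzf2 per CD3 by 2.68 (SD 1.13) and Ikzf4 per CD3 by 3.25 (SD 0.30). In an exact two-sided permutation test over the 216 ways to swap libraries within conditions, each gave p = 0.00926, the smallest that test can give. Adjusted over 5 relations the permutation p was 0.0116, and the 5 included the ratios of Ikzf2 and Ikzf4 to Foxp3 described below. All 6 Treg libraries exceeded all 6 Tconv libraries for each factor, as for 4.01% of the tested genes divided by CD3. By condition the Foxp3 difference was 4.46 (young), 2.11 (aged) and 4.14 (labelled). For Ikzf2 it was 3.54, 1.40 and 3.11, and for Ikzf4 it was 3.52, 2.93 and 3.31. Scaling edgeR to Cd3e and Cd3g in place of TMM gave 3.55, 2.67 and 3.17 for the mean difference, and shifted the median of all genes by 0.82, so that 49.6% of genes were called, 4619 higher and 86 lower, against 1090 and 1044 with TMM. Relative to that shift the differences were close to those with TMM.

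**Figure D4:**
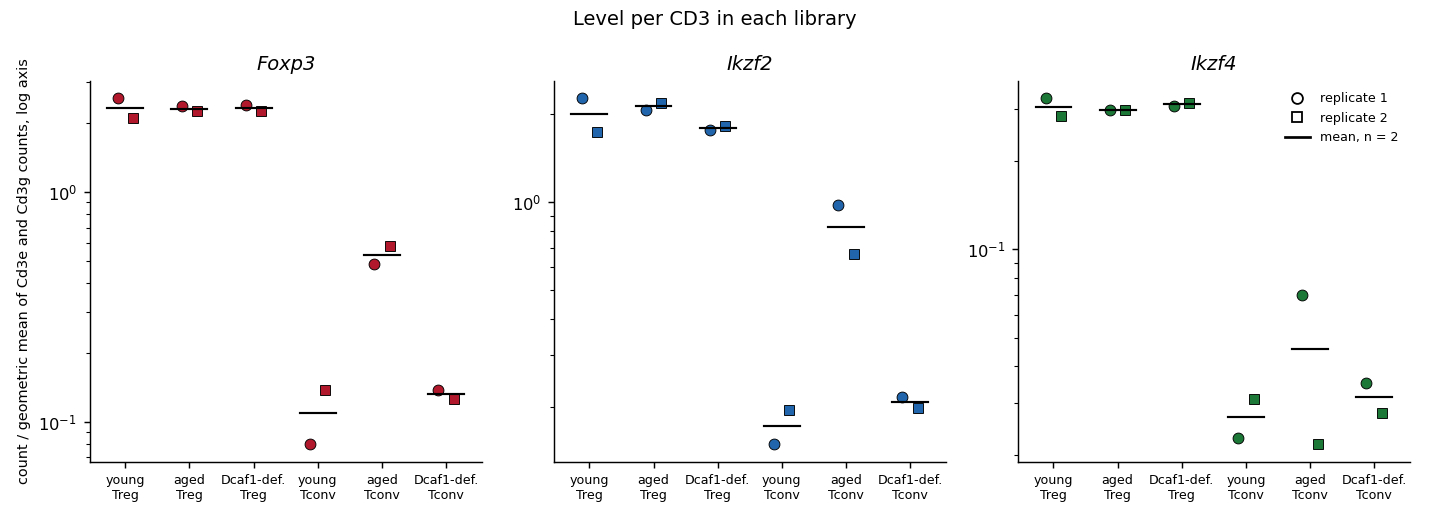
Counts of Foxp3, Ikzf2 and Ikzf4 divided by the geometric mean of the Cd3e and Cd3g counts (log axis) in the 6 groups; points are libraries and bars are means of 2. The 6 Treg libraries are level for each factor (2.10 to 2.55 for Foxp3), and aged Tconv reach 0.484 and 0.581 for Foxp3.

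Expressed as a percent of the mean over the 6 Treg libraries, Foxp3 per CD3 stood at 4.71% in young Tconv, 23.04% in aged Tconv and 5.70% in labelled Tconv. Ikzf2 per CD3 stood at 8.73%, 41.6% and 10.5% in the same groups, and Ikzf4 per CD3 at 8.82%, 15.1% and 10.3%. In aged Tconv 1 the percentages were 20.9% for Foxp3, 49.4% for Ikzf2 and 23.01% for Ikzf4, and in aged Tconv 2 they were 25.1%, 33.7% and 7.12%. The 3 factors therefore stood at unlike fractions of their Treg level in the same library. Il2ra per CD3, the transcript of the sorted protein, stood at 3.64% of its Treg mean in young Tconv, 1.95% in aged Tconv and 3.65% in labelled Tconv. Its values in aged Tconv were 0.0624 and 0.0255, against 0.0531 and 0.111 in young Tconv, so Il2ra was not higher in aged Tconv in either library than in both young ones.

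The proportion of Helios to Foxp3 transcripts was lower in Treg than in Tconv. Ikzf2 per Foxp3, as a ratio of counts, was 0.888 and 0.826 for young Treg, 0.878 and 0.978 for aged Treg, and 0.737 and 0.813 for labelled Treg. In Tconv it was 1.87 and 1.42 (young), 2.01 and 1.14 (aged) and 1.57 and 1.58 (labelled). All 6 Tconv libraries lay above all 6 Treg libraries, as for 24.7% of the tested genes divided by Foxp3. The mean difference of Treg from Tconv was -0.89 on the log2 scale (SD 0.16 over conditions), at -0.93 (young), -0.71 (aged) and -1.02 (labelled). Leaving out each of the 12 libraries in turn, it ran from -1.02 to -0.75. This proportion was chosen after its values were seen, so its permutation p-value is not printed. Gene length cancels between libraries but not between genes, so the ratio says nothing of which factor had more transcripts.

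Ikzf4 per Foxp3, also chosen after its values were seen, varied little over Treg and widely over Tconv. It was 0.128 and 0.135 for young Treg, 0.127 and 0.133 for aged Treg, and 0.129 and 0.140 for labelled Treg, a CV of 4.04%. In Tconv it was 0.286 and 0.224 in the young and 0.255 and 0.221 in the labelled libraries, above every Treg library, but 0.145 and 0.0373 in aged Tconv, for a CV of 46.4% over the 6. The mean difference of Treg from Tconv was -0.32, with -0.94 (young), 0.82 (aged) and -0.82 (labelled). It was -0.64 without aged Tconv 2 and 0.01 without aged Tconv 1, so this proportion rests on which aged Tconv library is kept.

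**Figure D5:**
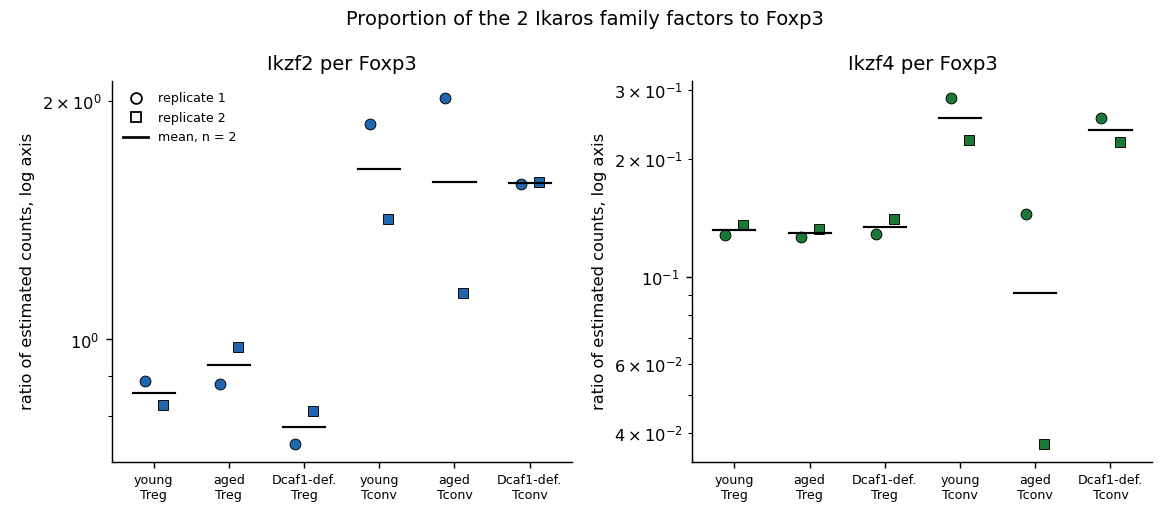
Ratios of the counts of Ikzf2 to Foxp3 (left) and Ikzf4 to Foxp3 (right) on log axes in the 6 groups; points are libraries and bars are means of 2. Treg libraries hold 0.737 to 0.978 for Ikzf2 and 0.127 to 0.140 for Ikzf4, while aged Tconv 2 falls to 0.0373 for Ikzf4.

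Age was also compared between the aged and the young Tconv. With no CD25 gate stated for Tconv, they may hold Treg, and the share of Treg among them was not tested. Foxp3 and Ikzf2 rose, by 3.002 (SE 0.56, edgeR adjusted p = 0.0248) and 2.85 (SE 0.50, edgeR adjusted p = 0.0226), and Ikzf4 did not pass at 1.24 (SE 0.50, edgeR adjusted p = 0.153). Of the tested genes 6.38% were called higher, 2.47% lower and 8.86% in either direction. All 3 factors lay higher in both aged than in both young libraries in CPM, as did 29.9% of genes. With CD3 scaling, which moved the median gene by -0.57, Foxp3 rose by 2.29 (edgeR adjusted p = 0.021), Ikzf2 by 2.25 (adjusted p = 0.0201) and Ikzf4 was at 0.77 (adjusted p = 0.498), and 1.67% of genes were called, 158 higher and 1 lower against 606 and 235 with TMM.

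Of the 4 libraries in that comparison, aged Tconv 2 alone carried the tag L3 in its title and the female transcript Xist at 1263 CPM, against 2.39 to 2.94 in the other 3; Foxp3 is X-linked. Aged Tconv 1, with Xist at 2.94, had 334 CPM of Foxp3 and 673 of Ikzf2, above both young libraries. Without aged Tconv 2 the differences were 2.41 for Foxp3 (edgeR adjusted p = 0.102) and 2.75 for Ikzf2 (edgeR adjusted p = 0.0804). With a term for the tag they were 2.20 (adjusted p = 0.0239) and 2.25 (adjusted p = 0.0418). Each call was kept in 5 of 12 leave-one-out fits, with adjusted p of 0.00352 to 0.189 over both factors, and was lost without either young Tconv library, aged Tconv 2 or any labelled library. For what rests on aged Tconv 2, age, tag and sex cannot be told apart. Of 13 macrophage genes 3 were positive in aged against young Tconv and 0 were called, with a median of -1.74. Their sums for aged Tconv were 206 and 589 CPM against 30.6 and 334 for young Tconv, and without Axl, 1 of the 13, they were 78.04 and 77.6 against 19.99 and 298. Pan-T sums for these 4 libraries lay between 7864 and 9115 CPM. As log2 ratios per CD3, aged minus young Tconv was 2.34 for Foxp3 (SE 0.42) and 2.24 for Ikzf2 (SE 0.34). For both, the 2 aged libraries lay above the 2 young ones, as for 12.2% of the tested genes divided by CD3. For Ikzf4 it was 0.55 (SE 0.87), and the ranges overlapped.

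Aged Treg did not differ detectably from young Treg in any of the 3. In CPM Foxp3 differed by 0.29 (SE 0.52, edgeR adjusted p = 0.796), Ikzf2 by 0.42 (SE 0.46, adjusted p = 0.661) and Ikzf4 by 0.29 (SE 0.49, adjusted p = 0.778), and the ranges overlapped for each. Aged Treg 2 carried the tag L3 and 2018 CPM of Xist against 2.38 in aged Treg 1, and Foxp3 per CD3 was 2.24 and 2.36 in them. With CD3 scaling the values were -0.02, 0.09 and -0.04, so 2 of 3 changed sign around 0. As log2 ratios per CD3, aged minus young Treg was -0.01 for Foxp3 (SE 0.15), 0.10 for Ikzf2 (SE 0.20) and -0.03 for Ikzf4 (SE 0.10), from 2 libraries a group. edgeR called 0% of genes in this comparison, 1697 had an unadjusted p under 0.05, DESeq2 called 713 and limma 2. A test on 2 against 2 values cannot give an exact p below 0.333.

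The difference in the age effect between Treg and Tconv was tested as an interaction. It was -2.72 for Foxp3 (SE 0.74, unadjusted p = 0.00649, edgeR adjusted p = 0.49), -2.43 for Ikzf2 (SE 0.67, edgeR adjusted p = 0.49) and -0.95 for Ikzf4 (SE 0.70, edgeR adjusted p = 0.93). No gene passed in edgeR (0%), with 615 at an unadjusted p under 0.05, while DESeq2 called 130 genes (1.13%), Foxp3 (-2.69) and Ikzf2 (-2.40) among them, and limma 1. The rise of both factors in aged Tconv is therefore not shown by edgeR to differ from the age effect in Treg.

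The libraries labelled Dcaf1-deficient were compared with young ones within each cell type. In Treg all 3 factors lay lower in both labelled libraries than in both young ones in CPM, as did 36.9% of genes, and none passed. Foxp3 was at -0.95 (SE 0.52, edgeR adjusted p = 0.273), Ikzf2 at -1.11 (SE 0.47, adjusted p = 0.194) and Ikzf4 at -0.91 (SE 0.49, adjusted p = 0.268). Per CD3 these differences were near 0: with CD3 scaling, which moved the median gene by 0.88, they were -0.00, -0.16 and 0.03. Xist was at 1.37 in labelled Treg 1 and 1658 in labelled Treg 2, and Foxp3 per CD3 was 2.39 and 2.25 in them. The log2 ratios per CD3 differed by 0.00 for Foxp3 (SE 0.15), -0.14 for Ikzf2 (SE 0.19) and 0.03 for Ikzf4 (SE 0.10). CD3 itself was 262 and 238 CPM in labelled against 559 and 387 in young Treg, and macrophage sums were 15224 and 18657 against 250 and 5121 CPM. edgeR called 0% of genes, 2359 had an unadjusted p under 0.05, DESeq2 called 1152 and limma 0. Without young Treg 2 and aged Treg 1, when young Treg 1 alone stood for its group, Ikzf2 passed at -1.50 (edgeR adjusted p = 0.00689), with 22.8% of genes called.

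In Tconv the labelled libraries were close to the young. Foxp3 differed by 0.31 (SE 0.52, edgeR adjusted p = 0.834), Ikzf2 by 0.30 (SE 0.47, adjusted p = 0.825) and Ikzf4 by 0.26 (SE 0.50, adjusted p = 0.858). Ikzf2 lay higher in both labelled libraries, as did 34.2% of genes, and the other 2 overlapped. Xist was at 1321 and 1339 CPM in labelled Tconv against 2.39 and 2.64 in young Tconv, so label and sex, as read from Xist, cannot be told apart there. edgeR called 0% of genes, 954 had an unadjusted p under 0.05, DESeq2 called 224 and limma 11. The difference of the label effect between Treg and Tconv was -1.26, -1.41 and -1.17 for Foxp3, Ikzf2 and Ikzf4 (edgeR adjusted p = 1 for each). For that interaction edgeR called 0% of genes, 260 had an unadjusted p under 0.05, DESeq2 called 1 and limma 0.

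Ikaros family genes were followed beside Ikzf2 and Ikzf4. Of 4 in the table, the 2 called higher in Treg over the 3 conditions were Ikzf2 and Ikzf4 themselves, and 1 was lower. The list median of 0.88, against -0.00 for all genes, includes these 2 factors. Of all genes 11.5% were called higher and 11% lower. The lower one was Ikzf1, which encodes Ikaros, a factor of lymphocyte development in general. It was at 668 and 717 CPM for young Treg, 576 and 299 for aged Treg, and 602 and 578 for labelled Treg. In Tconv it was at 1224 and 1253 CPM (young), 867 and 643 (aged) and 1018 and 1031 (labelled). Treg against Tconv, Ikzf1 was at -0.81 (SE 0.16, edgeR adjusted p = 0.0145), but at 0.08 with CD3 scaling (edgeR adjusted p = 0.865). Ikzf5 stood at -0.23 (edgeR adjusted p = 0.0962) and at 0.57 with CD3 scaling. That scaling put the median gene at 0.82, so both genes changed sign but stayed below the median gene. In aged against young Tconv 1 of the 4 was called higher, Ikzf2, where 6.38% of all genes were.

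Among 9 tested forkhead genes of T cells, Foxp3 was the only one called in Treg against Tconv, with a median of the list of -0.18, while with CD3 scaling Foxk2 (0.92) and Foxp4 (0.80) were called higher too, as were 48.6% of all genes. In aged Tconv 1 of 9 was higher and 2 were lower, where 6.38% of all genes were called higher and 2.47% lower. Foxo1, a factor of naive T cells that also acts on the Foxp3 gene, fell by 1.24, and Foxk1 fell by 0.99. With CD3 scaling neither passed (edgeR adjusted p = 0.282 and 0.447).

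Genes that Foxp3 is known to raise were mostly higher in Treg. Of 14 in the table, Ikzf4 among them, 12 were higher in Treg over the 3 conditions and 0 lower, with a median of 1.99 against -0.00 for all genes, of which 11.5% were called higher. With CD3 scaling 14 of 14 were called higher (median 2.79), where 48.6% of all genes were and the median gene was at 0.82. The 2 that did not pass with TMM were Nt5e (0.54) and Il10 (0.78). Il2ra, among the 12, was higher by 4.30 (edgeR adjusted p = 0.000245). It encodes CD25, by which Treg were sorted, so the sort itself selects for this difference. The integrin gene Itgae was higher by 3.14 and the cytokine signalling inhibitor Socs2 by 2.44. In aged against young Tconv 7 of 14 were called higher and 0 lower (median 2.23), where 6.38% of all genes were called higher. With CD3 scaling 4 were, where 1.66% of all genes were called higher. With TMM, Il10, an inhibitory cytokine, rose in aged Tconv by 5.33 and the costimulatory receptor gene Tnfrsf4 by 3.58. Icos rose by 1.81 and did not pass with CD3 scaling (1.18). Ctla4, which encodes an inhibitory receptor of Treg, rose by 3.08 and by 2.43 with CD3 scaling (edgeR adjusted p = 0.0106). It was at 168 and 157 CPM for young Tconv, 1078 and 1673 for aged Tconv, and 1146 and 616 for young Treg, so aged Tconv and young Treg overlapped. Il2ra, on the same list, was at -0.38 in aged Tconv and did not pass.

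Genes that Foxp3 is known to lower were mostly lower in Treg. Of 11, 8 were lower and 1 higher, with a median of -2.13, where 11% of all genes were lower. With CD3 scaling 5 were lower and 1 higher (median -1.33), where 0.906% of all genes were lower. The higher one was Dusp4 (1.37). Cd40lg, which helper T cells use to activate B cells, was at 50.1 and 37.8 CPM for young Treg and 239.9 and 239 for young Tconv, and at -3.05 in Treg against Tconv over the 3 conditions (edgeR adjusted p = 4.57e-05). Tcf7, a factor of naive and memory T cells, was at -2.41, the phosphodiesterase gene Pde3b at -2.23 and Themis, of T cell receptor signalling, at -2.13, and each passed. In aged Tconv this list split: 3 of 11 were higher and 2 lower, where 6.38% of all genes were called higher and 2.47% lower. Il21, a helper cytokine, rose by 4.03, the phosphatase gene Dusp4 by 3.07 and Il4 by 3.19, while Lef1, a factor related to Tcf7, fell by 2.14 and Cd40lg by 0.74. With CD3 scaling 0 of 11 were called in aged Tconv.

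Factors of effector Treg, which helper cells also use, were partly higher in Treg. Of 13, 5 were higher in Treg and 0 lower (median 0.38), where 11.5% of all genes were called higher. Irf4 was higher by 1.34, Myb by 1.02 and Prdm1 by 1.17. With CD3 scaling 9 of 13 were called higher, where 48.6% of all genes were. In aged Tconv 8 of 13 were higher and 0 lower (median 1.42), where 6.38% of all genes were called higher. With CD3 scaling 5 were higher, where 1.66% of all genes were. With TMM, Maf rose by 3.21 (edgeR adjusted p = 0.0126), Nfil3 by 3.54 and Batf, a partner of Irf4, by 2.57.

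Counts of partners and regulators of Foxp3 that passed in Treg against Tconv lay near the shares over all genes, 11.5% higher and 11% lower. Of 17 tested partners and cofactors, 1 was higher in Treg, Irf4, and 3 were lower, with a median of -0.19. The lower ones were Ctbp1, a corepressor through which Eos acts (-0.19), Nfatc2, an NFAT factor (-0.47), and Bcl11b (-0.68). Of 22 regulators of Foxp3 transcription, Il2ra, the gene of the sorted CD25, and Uhrf1, a maintenance factor of DNA methylation (1.23), were higher. Runx3 was lower (-0.73), with a list median of -0.11. Of 7 regulators of the Foxp3 protein, Nlk, a kinase that stabilises it (-0.83), and Sirt1, a deacetylase (-0.31), were lower, with a median of -0.13. With CD3 scaling, which put the median gene at 0.82, none of these 6 lower genes was called and 5 of the 6 turned positive. Nlk was at -0.04. With that scaling 6 of 17 partners, 10 of 22 transcriptional and 2 of 7 protein regulators were called higher, where 48.6% of all genes were.

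In aged against young Tconv, 2 of 17 partners were higher, the hypoxia factor gene Hif1a by 2.98 and Irf4 by 1.42, and 0 were lower. Of all genes 6.38% were called higher there and 2.47% lower. Of the transcriptional regulators, the nuclear receptor gene Nr4a2, which can act on the Foxp3 gene, rose by 3.15, while Foxo1, Smad2 (-0.48) and Tet3 (-1.40) fell. Nlk fell by 0.94 and Sirt1 by 0.65. With CD3 scaling Hif1a (2.19, edgeR adjusted p = 0.0289) and Nr4a2 (2.60, adjusted p = 0.0346) passed, and Irf4 and the lower genes did not.

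Over the 12 libraries, the genes most like each factor in log2 CPM were ranked among the 7507 genes whose mean reached 4 CPM. Those most like Foxp3 were Ergic1 and Mdfic (r = 0.978 each), Ikzf2 (0.975), Lclat1 (0.969), the GTPase gene Gbp5 (0.968) and Prodh (0.966). Those most like Ikzf2 were Lclat1 (0.980), Foxp3 (0.975), Rsl1 (0.971), the Rac exchange factor gene Tiam1 (0.968), Tnfrsf4 (0.964) and Pdcd1lg2 (0.964), which encodes a ligand of PD-1. Those most like Ikzf4 were Rragd (0.987), the histone gene H2afz (0.962), Aldh18a1 (0.962), Hipk2 (0.961), Bmyc (0.955) and Cish (0.945), which encodes an inhibitor induced by STAT5. Foxp3 and Ikzf2 shared Lclat1 and each other, and Ikzf4 shared none of its 6 with them. Lclat1 was at 180 and 132 CPM for young Treg, 39.7 and 38.1 for young Tconv, 90.1 and 150.3 for aged Tconv. Rragd, in contrast, was at 63.6 and 39.3 CPM for young Treg, 7.56 and 8.58 for young Tconv, 21.2 and 12.3 for aged Tconv, the order that Ikzf4 also had. The points share the 2 cell types and the RNA of other cells in the Treg libraries, so these are descriptions of likeness only.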

How the data were processed

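The authors deposited a table of estimated counts per gene for the 12 libraries and a table of log2 values. Per the submitters' processing notes, the tools were Salmon 0.9.1 and DESeq2 with build mm10; the transformation behind the deposited log2 values is not given in the sources used here. Libraries were poly(A) selected, per the labels. Of the count values 23.5% were whole, and all were rounded. Counts were fitted with edgeR 4.0.16 (R 4.3.3; TMM, filterByExpr, quasi-likelihood, 1 fit over 6 groups, 6 residual degrees of freedom, Benjamini-Hochberg threshold 0.05). Of 13404 genes 9495 were tested, and 1991 with a count were removed as low. CPM used a prior count of 2 on the log2 scale. Alternatives were DESeq2 1.42.0, limma 3.58.1 on the deposited log2 values, RLE scaling, no filter, a replicate block, a term for the title tag, scaling to Cd3e and Cd3g, other T cell references for the ratios, and leaving out libraries. Scripts were tested on simulated data. Ratios were tested by exact permutation of libraries within conditions.

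The members and gene lists were chosen with earlier results of these data known. Named genes were the 3 factors, Cd3e, Cd3g, Il2ra and Vprbp, the Ikaros family, up to 4 genes a list with the smallest adjusted p in Treg against Tconv and up to 3 in aged against young Tconv, and the 6 genes most like each factor. Immunoglobulin and receptor segments and unnamed genes were left out of the last, and 1 gene that the rule names is not reported here. Ctla4, Tet3, Nt5e, Il4, Dusp4 in Treg, Cd40lg in aged Tconv, the genes of low or compared spread and Xist were named after their values were seen. The ratios of Ikzf2 and Ikzf4 to Foxp3 were also added after the values were seen. Depth ran from 18358477 to 26852448 estimated counts, and each group had 2 libraries.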

Additional observations from a re-analysis of the deposited data

How the results depend on the processing

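Over the alternatives, 565 tested values of the factors and of their ratios to CD3 kept their direction and side of the threshold, 48 no longer passed, 21 newly passed and 14 changed sign; the causes were not tested. Of 15 pairs of groups 4 had a correlation of deviations between same-numbered libraries over 0.1 and 2 under -0.1, from -0.66 to 0.68. Most of these pairs cross conditions and cannot show pairing. Between Treg and Tconv of the same condition the correlation was 0.68 (young), 0.27 (aged) and 0.04 (labelled). By Xist, labelled Treg 1 (1.37 CPM) and labelled Tconv 1 (1321 CPM) were of unlike sex, so they did not come from the same mouse. For the other libraries of the same number this was not tested. With the replicate block, Ikzf2 (3.31) and Ikzf4 (3.22) in young Treg against Tconv and Foxp3 in the labelled libraries (2.90) no longer passed, the young count of called genes was 40 and the aged 50. DESeq2 called Foxp3 (1.46) and Ikzf4 (2.31) in aged Treg against Tconv, Ikzf2 (1.90) and Ikzf4 (2.10) in the labelled libraries, and Foxp3 (-2.69) and Ikzf2 (-2.40) in the age interaction. With CD3 scaling Ikzf2 (3.11) and Ikzf4 (3.30) passed in the labelled libraries, and signs turned for aged against young Treg in Foxp3 (-0.017) and Ikzf4 (-0.036) and for labelled against young Treg in Ikzf4 (0.029). With the tag term Foxp3 in the labelled libraries did not pass (3.50). The tag term turned aged against young Treg for Foxp3 (-0.64), Ikzf2 (-0.38) and Ikzf4 (-0.26), and labelled against young Tconv for Ikzf2 (-0.037) and Ikzf4 (-0.30). Without young Treg 2 and aged Treg 1, Ikzf2 (1.43) and Ikzf4 (2.85) in aged, Ikzf2 (1.89) and Ikzf4 (2.09) in labelled Treg against Tconv, Ikzf4 in aged Tconv (1.22) and Ikzf2 in labelled Treg (-1.50) passed.

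Leaving out 1 library at a time gave 2.53 to 3.02 for Foxp3, 1.66 to 2.19 for Ikzf2 and 2.21 to 2.71 for Ikzf4 in Treg against Tconv over the conditions. In the same order of genes it gave 3.69 to 4.57, 2.74 to 3.66 and 2.82 to 3.55 in the young, 0.56 to 2.03, -0.14 to 1.43 and 1.36 to 2.84 in the aged, and 2.77 to 2.996, 1.81 to 1.96 and 1.91 to 2.27 in the labelled libraries. Aged against young gave -0.59 to 0.83, -0.57 to 1.00 and -0.63 to 0.85 in Treg, and 2.41 to 3.42, 2.70 to 3.01 and 0.69 to 1.63 in Tconv. Ikzf4 per Foxp3, not among those totals, ran from -0.64 to 0.010 and changed sign without aged Tconv 1.

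Called genes over the conditions numbered 2134, and 223 with the tag term, 4705 with CD3 scaling, 1404 without the 2 libraries and 491 to 3016 leaving out 1. For the young the 76 became 654 with DESeq2, 167 with the tag term, 142 with limma, 47 with CD3 scaling, 215 without the 2 libraries and 0 to 272 leaving out 1. For the aged the 78 became 962, 146, 190, 12, 245 and 21 to 359 in that order. For the labelled libraries the 211 became 1445 with DESeq2, 12 with the tag term, 384 with limma, 1487 without the 2 libraries and 2 to 774 leaving out 1. For aged against young Tconv the 841 became 2033 with DESeq2, 437 with the tag term, 159 with CD3 scaling, 1431 without the 2 libraries and 0 to 2340 leaving out 1. Where edgeR called 0, DESeq2 called 713 in aged against young Treg, 1152 in labelled against young Treg, 224 in labelled against young Tconv, 130 in the age interaction and 1 in the label interaction. limma called 2, 0, 11, 1 and 0 there. Leaving out 1 library gave 0 to 434, 0 to 157, 0 to 17, 0 to 112 and 0. Without the 2 libraries the counts were 244, 2219, 38, 0 and 10, CD3 scaling called 1 in labelled against young Tconv, and the tag term 46 in the age interaction. Where a library was left out, its lone partner was assumed to vary like the other groups. The calls over the 3 conditions were made in 12 of 12 such fits.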
